A study of Danio rerio with 10 samples.

Results

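Hindbrain cells of zebrafish embryos labelled as at 3 somites (a slightly later somite stage is given in the study's text) were examined by single-cell RNA sequencing, as 1399 of 16837 quality-controlled cells (8.31%) from 10 embryos. A cell was taken as a hindbrain cell when it held at least 1 unique molecular identifier (UMI, a counted RNA molecule) of at least 2 of the 6 hindbrain markers egr2b, mafba, hoxa2b, hoxb1a, hoxb2a and hoxb3a, together with a UMI of the neural genes sox3 or sox19a. It also had to hold 0 UMIs of the neural crest genes sox10 and foxd3. The cells were thus chosen by the measured values of these 10 genes, whose levels are given as a description only. Those with enough UMIs stayed among the genes fitted below, and no p-value of theirs is given. The study compared 3 dact1-/-;dact2-/- compound mutant embryos (dact1/2 mutants), 3 gpc4-/- mutant embryos and 4 wildtype embryos, to find expression changes that separate 2 mutants with a similarly shortened body axis. All embryos were of the Tubingen strain by their labels, and each was dissociated whole and gave 1 library.

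The dact1 and dact2 alleles were made with CRISPR/Cas9 and carry premature stop codons, and both genes encode Dishevelled-binding proteins of Wnt signaling. The gpc4 line carries an insertion in the gene for glypican 4, a heparan sulfate proteoglycan of the cell surface that acts in noncanonical Wnt signaling. Mutant embryos were picked by their short axis, since single embryos could not be genotyped. Their RNA was checked here in all quality-controlled cells, in CPM, which are UMIs per 1000000 counted. The gpc4 RNA was at 13.5 to 17.3 CPM in gpc4 mutants, against 41.4 to 58.1 CPM in dact1/2 mutants and 50.5 to 68.3 CPM in wildtype embryos. For dact1 the levels were 2.00 to 2.80 CPM in dact1/2 mutants, 4.81 to 6.64 CPM in gpc4 mutants and 5.57 to 6.44 CPM in wildtype embryos. The dact2 RNA overlapped among the 3 groups, at 34.5 to 51.1 CPM in dact1/2 mutants, 47.3 to 54.5 CPM in gpc4 mutants and 40.8 to 70.4 CPM in wildtype embryos. A premature stop need not lower the RNA of a gene.

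The hindbrain of vertebrates forms as a row of segments, the rhombomeres, which later give rise to distinct cranial motor neurons and neural crest streams. Segment identity is set by hox genes of the anterior paralog groups together with a few other transcription factors. The zinc finger factor egr2b (krox20) marks the third and the fifth rhombomere, mafba (valentino) marks the fifth and the sixth, and hoxb1a marks the fourth. Retinoic acid from the neighbouring mesoderm and its breakdown by Cyp26 enzymes place the borders along the axis, and Eph receptors with their ephrin ligands keep the cells of neighbouring segments apart.

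Library depth and cell quality varied among embryos. Between 976 and 2655 cells per embryo passed quality control, and their median depth was between 4229.5 and 11255 UMIs. The 4 wildtype embryos were not alike: by expression in hindbrain cells, wildtype replicate 1 lay at distances of 70.17 to 81.8 from the other 9 embryos, while those 9 lay at 38.3 to 65.8 from each other. The expression tests between genotypes used wildtype replicates 2 to 4, which by library names are the ones drawn in the study's heat map of such comparisons. Its methods name all 4 and give no reason for leaving 1 out, and values with all 4 wildtype embryos are given beside them. No barcode of a hindbrain cell occurred in more than 1 library, and 30 of 16807 distinct barcodes of quality-controlled cells did.

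The label was then checked against other markers. Of the 1399 hindbrain cells, 1092 held UMIs of at least 2 markers of a non-neural cell type (paraxial mesoderm, lateral plate and heart, blood and vessel, endoderm, or epidermis and periderm), and 307 (21.9%) did not. The share with such markers grew with depth, at 46.9% of hindbrain cells under 4000 UMIs and 98.5% of those of at least 30000 UMIs, and in all other quality-controlled cells it was 72.5% and 98.3% in the same depth ranges. Hindbrain cells had a median of 11090 UMIs, against 5668 UMIs over all quality-controlled cells, and reached 205617 UMIs. The epidermis and periderm list of 10 genes summed to a median of 2219.9 CPM over embryos in hindbrain cells, against 2107 CPM in all quality-controlled cells. For the 14 paraxial mesoderm genes the sums were 860.2 and 1381 CPM in the same order. Most of the selected cells thus held UMIs of other cell types, summed epidermal levels in them were near those of the embryo as a whole, and their markers alone do not establish them as hindbrain cells. The role of doublets and of free RNA in this was not tested.

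The 307 hindbrain cells without other markers were described apart. Their median depth was 5898 UMIs. Of the UMIs of all hindbrain cells of an embryo, they gave 5.07% to 10.7% in dact1/2 mutants. In gpc4 mutants this was 2.205% to 14.6%, and in wildtype embryos 7.06% to 19.5%. The 6 hindbrain markers summed to a median of 942 CPM in them, against 462 CPM in all hindbrain cells and 200.1 CPM in all quality-controlled cells. These markers chose the cells, so that order is a description only. Epidermis and periderm genes summed to 85.4 CPM and paraxial mesoderm genes to 61.8 CPM, low values that follow from the way these cells were set apart. The list of 16 midbrain and forebrain genes, which played no part in setting them apart, was at 161 CPM, against 264 CPM in all hindbrain cells and 844 CPM in anterior neural cells. The spinal cord and tail bud list, likewise not used, was higher in them, at 956 CPM, against 765 CPM in all hindbrain cells and 1897 CPM in posterior neural cells. Anterior neural cells (1908) and posterior neural cells (1444) were chosen in the same manner with markers of those regions, and are used below only for comparison. Their values here include cells with other markers. Counts of calls below are given for all hindbrain cells and for those without other markers. Single genes are given for both sets in places only.

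**Figure D1:**
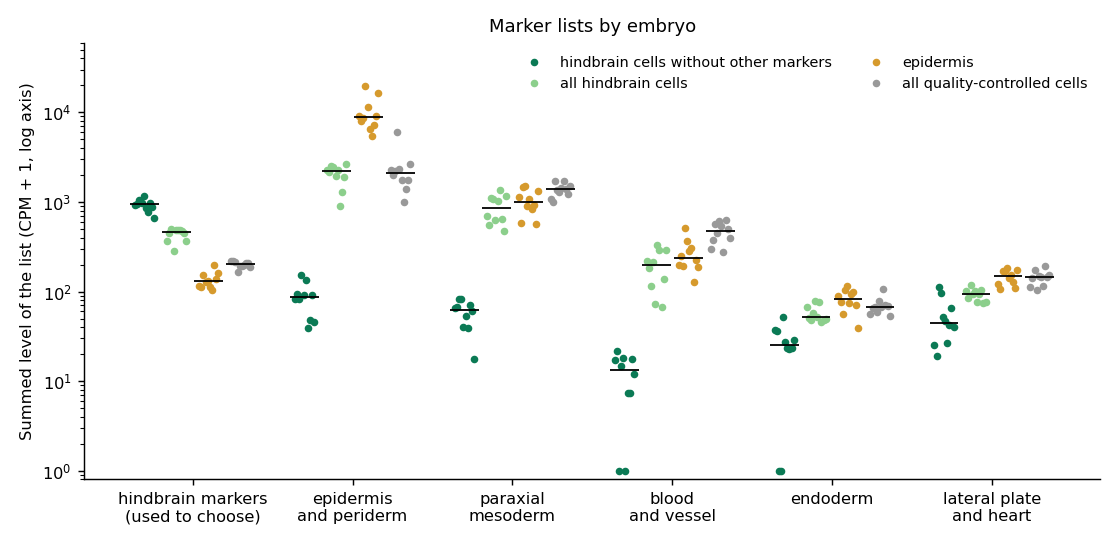
Summed level of each marker list (CPM + 1, log axis) in hindbrain cells without other markers, all hindbrain cells, epidermis cells and all quality-controlled cells; each point is 1 of the 10 embryos and the horizontal lines are medians over embryos. The epidermis and periderm list was near the level of the whole embryo in all hindbrain cells (2219.9 against 2107 CPM). The hindbrain markers chose the cells, and the other lists set apart those without other markers, so these levels are a description.

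The 6 markers did not contribute equally to the selection. hoxb3a, a hox gene of group 3 expressed in the caudal hindbrain and spinal cord, had a UMI in 90.4% of the hindbrain cells and in 83.4% of those without other markers. hoxb2a was found in 44.2% and 41.4%, and hoxa2b, the anterior-most hox gene of the hindbrain, in 39.2% and 33.6%. egr2b was found in 28.1% and 33.2%, mafba in 28.8% and 32.9%, and hoxb1a in 18.9% and 15.3%. The most common sets were pairs with hoxb3a: 258 cells held only hoxb2a and hoxb3a of the 6 markers, and 222 held only hoxa2b and hoxb3a.

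Epidermis cells, which should lack these genes, were used as the background for free RNA. They held UMIs of at least 3 of 8 epidermal genes (tp63, cldni, krt4, krt5, epcam, cyt1, cyt1l and krt92) and none of sox3, sox19a, sox10 and foxd3. Epidermis cells that held free RNA of sox3 or sox19a were thus left out, while hindbrain cells had to hold either gene. The background shares may therefore be too low, which was not tested. Cells of at least 3000 UMIs were thinned to that depth, and shallower cells were dropped. This left 1364 of 1399 hindbrain cells and 1098 of 1424 epidermis cells. Of these, 48.5% of the hindbrain cells and 19.8% of the epidermis cells had a UMI of hoxb3a. egr2b was found in 16.1% of the thinned hindbrain cells and in 1.09% of the thinned epidermis cells, and mafba in 15.8% and 2.28%. For hoxa2b the shares were 13.6% and 2.64%, for hoxb1a 7.04% and 1.91%, and for hoxb2a 14.6% and 3.73%. Before thinning, median depths were 11090 UMIs in hindbrain cells and 4585 UMIs in epidermis cells, and the shares with hoxb3a were 90.4% and 28.2%. All 6 shares were above their background, as the selection requires, and hoxb3a had by far the highest background.

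The threshold of 2 markers fell in a continuous series. Among neural cells without sox10 and foxd3, 901 held exactly 2 of the 6 markers and were just inside, with a median of 9217 UMIs and 24.1% of them without other markers. Another 1881 held exactly 1 marker and were just outside, with a median of 6695 UMIs and 27.0% of them without other markers. Exactly 3 markers were held by 339 cells, 4 by 125, 5 by 32 and all 6 by 2. Median depth was 14519 UMIs in the cells with 3 markers and 38129.5 UMIs in those with 5.

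Levels along the neural axis were set beside each other in cells without other markers, where 671 anterior and 364 posterior neural cells served for comparison. egr2b was at 102, 231 and 314 CPM (lowest, median and highest embryo) in hindbrain cells, against a median of 0 CPM in both anterior and posterior neural cells. hoxb3a was at 172, 304 and 439.5 CPM in hindbrain cells, against 3.04, 17.4 and 36.4 CPM in anterior and 109.8, 184 and 273 CPM in posterior neural cells, so its range reached into that of the posterior cells. Both genes belong to the selection.

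Genes outside the hindbrain selection gave a like picture, as a description with no test. Anterior and posterior neural cells were chosen by UMIs of markers of their own regions. High levels in them of genes of those regions can follow from that choice. cyp26c1 was at 33.3, 313 and 666 CPM in hindbrain cells, against 5.20, 22.4 and 66.1 CPM in anterior and 0, 7.55 and 56.9 CPM in posterior neural cells. hoxa4a, a group 4 hox gene of the caudal hindbrain and spinal cord, was at 60.7, 126 and 234 CPM in hindbrain cells, against 1.21, 4.96 and 18.2 CPM in anterior and 32.5, 80.4 and 164 CPM in posterior neural cells. The more caudal hoxb9a was at 40.5, 113 and 179 CPM in hindbrain cells, against 167, 307 and 533 CPM in posterior neural cells. otx1, a factor of the forebrain and midbrain, and en2b, of the midbrain-hindbrain boundary, had medians of 27.2 and 18.4 CPM in hindbrain cells, against 208 and 317 CPM in anterior neural cells. Ranges overlapped for cyp26c1 with both other regions and for hoxa4a and hoxb9a with the posterior cells, and did not overlap for otx1 and en2b with the anterior cells.

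The share of hindbrain cells among quality-controlled cells was 10.5%, 7.72% and 8.15% in the 3 dact1/2 mutants and 10.5%, 6.68% and 5.90% in the 3 gpc4 mutants, against 8.12%, 8.27%, 8.32% and 10.6% in the 4 wildtype embryos. All 3 groups overlapped. The Wilson 95% interval, which covers counting error only, was 4.92% to 7.06% for the lowest of them (gpc4 mutant replicate 3) and 8.78% to 12.6% for the highest (wildtype replicate 4).

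The mean share was 8.78% ± 1.48 (SD, n = 3) in dact1/2 mutants and 8.82% ± 1.16 (SD, n = 4) in wildtype embryos, a difference of -0.0324 percentage points (exact permutation test, two-sided, p = 0.943, adjusted over both comparisons 0.943). In gpc4 mutants it was 7.68% ± 2.44 (SD, n = 3), a difference from wildtype of -1.13 percentage points (exact permutation test, p = 0.429, adjusted 0.857). The smallest p that 3 against 4 embryos allow is 0.0286. With every cell thinned to 3000 UMIs the shares were 3.99%, 3.16% and 3.21% in dact1/2 mutants, 2.78%, 2.57% and 2.69% in gpc4 mutants, and 1.46%, 3.02%, 3.51% and 3.06% in wildtype embryos. Hindbrain cells without other markers were 1.58% ± 0.414 (SD, n = 3) of the cells in dact1/2 mutants and 1.40% ± 0.638 (SD, n = 3) in gpc4 mutants, against 2.24% ± 0.601 (SD, n = 4) in wildtype embryos (exact permutation test, p = 0.229 and p = 0.171). No difference in share was detectable with these numbers of embryos.

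**Figure D2:**
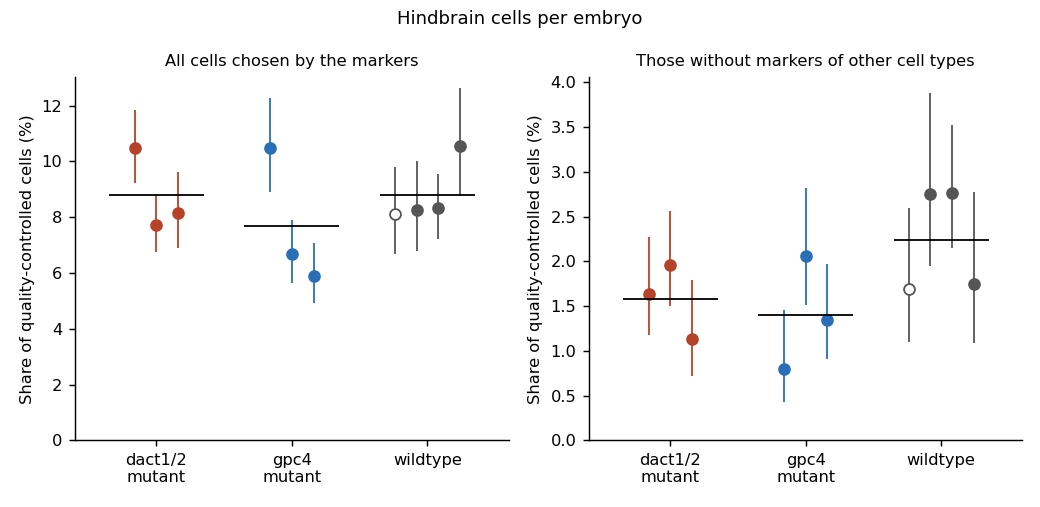
Share of hindbrain cells among quality-controlled cells (percent) in each embryo, for all hindbrain cells and for those without other markers; bars are Wilson 95% intervals, horizontal lines are group means, and the open circle is wildtype replicate 1. The dact1/2 mutants were between 7.72% and 10.5% and the gpc4 mutants between 5.90% and 10.5%, in the range of the wildtype embryos or below it.

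Rhombomere codes were read in the 307 cells without other markers. Of these, 50 held egr2b without mafba, 52 held both egr2b and mafba, 49 held mafba without egr2b, 46 held hoxb1a with neither, and 110 (35.8%) held none of the 3 genes. In no cell were egr2b and hoxb1a found together (0 of 102 cells with egr2b), and mafba and hoxb1a met in 1 cell. In all hindbrain cells 26 of 393 cells with egr2b (6.62%) also held hoxb1a. These 3 genes belong to the selection, so their combinations are a description.

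The codes overlapped between genotypes and were not tested. Cells with none of the 3 genes were 33.3% in dact1/2 mutants, 32.9% in gpc4 mutants and 39.5% in wildtype embryos, with single embryos between 25.0% and 48.6% in dact1/2 mutants, 10.0% and 44.0% in gpc4 mutants, and 32.3% and 47.1% in wildtype. Cells with hoxb1a but neither egr2b nor mafba were 14.3% of the cells in dact1/2 mutants, 21.9% in gpc4 mutants and 11.6% in wildtype embryos. Single embryos held between 10 and 61 hindbrain cells without other markers, and the share of this last code spread between 0% and 50% of them.

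Genes that the selection did not use also differed between the codes. cyp26c1, a retinoic acid-degrading enzyme, pooled over embryos was at 858 CPM in cells with egr2b and mafba and at 1136 CPM in those with mafba without egr2b. In cells with egr2b only, hoxb1a only and none of the 3 genes it was at 38.3, 49.5 and 12.7 CPM. The UMIs behind these levels came from 9, 8, 5, 6 and 5 embryos in the same order. epha4a, the Eph receptor of the odd rhombomeres, was at 340.3 CPM with egr2b without mafba and 305 CPM with both, and at 35.2, 60.1 and 39.4 CPM in the cells with mafba, hoxb1a and none.

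cyp26b1, another Cyp26 enzyme, had a different distribution. It was at 228 CPM in cells with egr2b without mafba and 216 CPM in cells with hoxb1a, and at 5.82, 27.7 and 37.1 CPM in the other 3 codes. hoxb1b, the second group 1 hox gene of the hindbrain, was highest with hoxb1a at 141 CPM and lowest with egr2b and mafba at 5.82 CPM. irx7, an Iroquois factor of the midbrain and anterior hindbrain, was at 120.2 CPM with hoxb1a and 8.72 CPM with egr2b and mafba. The lens-type crystallin crygn2 reached 212 CPM in cells with egr2b and mafba and was between 3.54 and 30.2 CPM in the other codes.

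Cells with none of the 3 genes had a caudal profile. cdx4, a caudal-type factor of the spinal cord and tail bud, was at 1088 CPM in them, against 120.2 to 319 CPM in the other codes, and had UMIs in all 10 embryos. The 21 posterior hox genes (groups 5 to 10) summed to 1509 CPM in them and to between 227 and 410.2 CPM in the others. The spinal cord and tail bud list summed to 2097 CPM, against 255 to 659 CPM in the others. The posterior neural cells, including those with other markers, had a median of 1897 CPM of this list over embryos, while levels of the codes are pooled. Cells of this code entered the selection through hoxa2b, hoxb2a and hoxb3a, and their name as hindbrain cells rests on that selection. Among all 1399 hindbrain cells 553 held none of the 3 genes. The shares and the comparisons of genotypes include such cells, and neither was repeated without them.

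**Figure D3:**
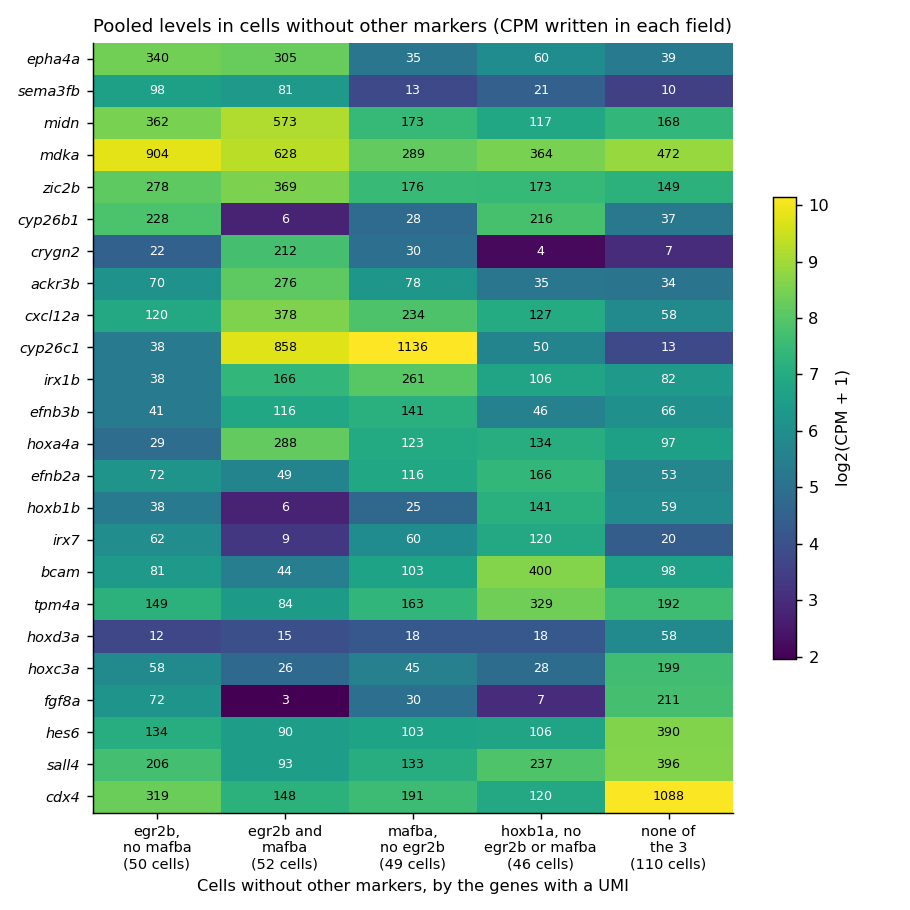
Level of 24 genes (CPM pooled over embryos, written in each field, with the colour showing log2 of CPM + 1) in hindbrain cells without other markers, in columns by which of egr2b, mafba and hoxb1a they held. cyp26c1 was highest with mafba (858 and 1136 CPM), epha4a with egr2b (340.3 and 305 CPM), hoxb1b with hoxb1a (141 CPM), and cdx4 in cells with none of them (1088 CPM).

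The difference between hindbrain cells with and without each of these genes was then tested within embryos, with edgeR's quasi-likelihood test on UMIs summed per embryo and side, the embryo as a block, and Benjamini-Hochberg adjustment. Genes are named as called where the adjusted p was below 0.1 and the log2 fold change beyond 0.58 in either direction. Cells without a marker had to hold 2 of the other 5, so the sides also differ in the rest of the selection. Cells with none of egr2b, mafba and hoxb1a, 553 of the 1399, were all on the side without the gene, where they made up 54.97% (egr2b), 55.5% (mafba) and 48.7% (hoxb1a) of the cells. The calls therefore compare the sets of cells as the selection formed them, and each split was repeated without those 553 cells, an alternative chosen after the results were seen. The genes of the selection are given as values only. In cells without other markers far fewer genes had enough UMIs to be tested (1222 for egr2b, 1548 for mafba and 963 for hoxb1a). A gene said not to be among the calls shared with those cells may not have been tested there.

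With egr2b there were 393 cells and without it 1006, with median depths of 12849 and 10638 UMIs. Other markers were found in 74.0% of the cells with egr2b and in 79.6% of those without. Of 7034 genes tested, 226 (3.21%) were called, 59 higher and 167 lower with egr2b, and 3 of them belonged to the selection. In the cells without other markers 23 of 1222 genes (1.88%) were called, 14 higher and 9 lower, and 2 of them belonged to the selection. Of the 23, 12 were also called in the same direction in all hindbrain cells. They were cdx4, cspg5a, epha4a, fabp3, hes6, mdkb, midn, msx1b, pou3f1 and zic2b, and from the selection egr2b and mafba. Those 12 are 5.31% of the first set of calls and 52.2% of the second. The calls were 21 after thinning to 3000 UMIs. Without the cells holding none of the 3 genes, 129 of 5669 genes (2.28%) were called, 84 of them also called in the same direction among the 226.

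epha4a was called in both fits. It was at 78.8, 143 and 310.0 CPM (lowest, median and highest embryo) with egr2b and at 33.0, 49.3 and 76.0 CPM without it, and was higher with egr2b in 10 of 10 embryos (log2 fold change 1.62, SE 0.12, edgeR adjusted p = 3.3e-08). In cells without other markers it was at 201, 306 and 532 CPM with egr2b and at 18.5, 41.3 and 74.6 CPM without it. The 2 sides did not overlap there, and the log2 fold change was 2.87 (SE 0.21, edgeR adjusted p = 9.88e-11). Among all hindbrain cells without those holding none of the 3 genes it was 1.98.

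sema3fb, a secreted semaphorin, was at a median of 41.1 CPM with egr2b and 9.02 CPM without it, and was higher with egr2b in 10 of 10 embryos (log2 fold change 2.02). It was not among the calls shared with the cells without other markers. midn, which encodes midnolin, was at 304 and 175 CPM (log2 fold change 0.89), and in cells without other markers at 408 and 146 CPM (log2 fold change 1.53). After thinning midn remained called (log2 fold change 1.29). mdkb, which encodes the heparin-binding growth factor midkine, was at 294 and 177 CPM with and without egr2b (log2 fold change 0.84). fabp3, a fatty acid-binding protein, was at 668 and 384 CPM (log2 fold change 0.72). Of the 19 tested genes in a list of SoxB and neural progenitor factors, 7 were higher with egr2b and 0 lower, with a list median of 0.37 on the log2 scale against 0.02 over all genes. The 7 were pax6a, pou3f1, sox21a, zic1, zic2a, zic2b and zic5. With the cells holding none of the 3 genes left out, 3 of 17 remained called (pax6a, pou3f1 and zic2b), and fabp3 (0.57 on the log2 scale) was no longer past the threshold. pou3f1, a POU-domain factor, was at 62.6 and 37.2 CPM with and without egr2b (log2 fold change 1.04), and pax6a, a paired-box factor of the neural tube, at 118 and 65.4 CPM (log2 fold change 0.87).

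Most of the lower calls of hox genes outside the selection were lost without the cells holding none of the 3 genes. Of 17 tested posterior hox genes 10 were lower and 0 higher, with a median log2 fold change of -0.63, and of 6 other anterior hox genes 5 were lower and 0 higher (hoxb1b, hoxc1a, hoxc3a, hoxd3a and hoxd4a). Without those cells 1 of 14 posterior hox genes (hoxb5b) was lower, with a list median of 0.21 on the log2 scale, and 2 of 6 other anterior hox genes, hoxb1b and hoxc1a. hoxb1b was at a median of 30.5 CPM with egr2b and 57.6 CPM without it, and lower with egr2b in 10 of 10 embryos (log2 fold change -0.96, SE 0.13, edgeR adjusted p = 6.43e-05). hoxb5a was at 9.24 and 22.6 CPM (log2 fold change -1.22). The collagen gene col2a1a, a notochord and floor plate gene at this stage, was at 35.7 and 169.7 CPM (log2 fold change -2.36). Where cells with other markers were left out, cdx4 was at 151 CPM with egr2b and 714 CPM without it (log2 fold change -1.67), and hes6, a hairy-related factor, at 95.3 and 221 CPM (log2 fold change -1.06). When cells with none of the 3 genes were left out, in all hindbrain cells, the log2 values were 0.10 for cdx4 and 0.05 for hes6, neither called.

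With mafba there were 403 cells and without it 996, with median depths of 12308 and 10752 UMIs and other markers in 74.9% and 79.3% of them. Of 6466 genes tested, 173 (2.68%) were called, 51 higher and 122 lower with mafba, and 5 of them belonged to the selection. In cells without other markers 33 of 1548 (2.13%) were called, 18 higher and 15 lower, and 2 of them belonged to the selection. The calls shared with the same direction were 9, or 5.20% and 27.3% of the 2 sets, and 12 genes were called after thinning. The shared calls were ackr3b, cdx4, chrd, cxcl12a, dtnba, hes6 and hoxa4a, and from the selection egr2b and mafba. Once the 553 cells with none of the 3 genes were left out, 68 of 5612 genes (1.21%) were called, 53 of them also called in the same direction among the 173.

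cyp26c1 had the largest log2 fold change among the called genes of the retinoic acid list. It was at 139, 255 and 543 CPM (lowest, median and highest embryo) with mafba and at 23.2, 32.1 and 97.3 CPM without it. The sides did not overlap, and the gene was higher with mafba in 10 of 10 embryos (log2 fold change 2.83, SE 0.20, edgeR adjusted p = 1.44e-08). cyp26b1 went the other way, at 0, 15.3 and 42.5 CPM with mafba and 19.1, 69.2 and 95.2 CPM without it (log2 fold change -1.59, SE 0.23, edgeR adjusted p = 0.000464). Of the 13 tested genes of the retinoic acid list 1 was higher and 4 were lower with mafba, the others lower being aldh1a2, which makes retinoic acid in paraxial mesoderm, dhrs3b and the receptor gene rarga. In the 4 wildtype embryos alone cyp26b1 was not called. Neither cyp26c1 nor cyp26b1 was among the calls shared with the cells without other markers. Without the cells holding none of the 3 genes, cyp26c1 (2.38 on the log2 scale) and cyp26b1 (-2.33) were called and the other 3 were not.

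Crystallin and chemokine-receptor genes were also higher with mafba. crygn2 was at a median of 39.0 CPM with mafba and 6.08 CPM without it (log2 fold change 3.02, SE 0.19, edgeR adjusted p = 2.03e-09), and crygmx at 20.9 and 0.922 CPM (log2 fold change 4.24). The calls shared with the cells without other markers held neither crystallin gene. ackr3b, a scavenging receptor for the chemokine Cxcl12, was at 68.5 and 37.5 CPM (log2 fold change 0.87), and in cells without other markers at 166 and 36.5 CPM (log2 fold change 1.85). hoxa4a was the only gene of the 2 hox lists called higher, at 90.3 and 46.9 CPM (log2 fold change 0.77), and in cells without other markers at 199 and 92.0 CPM (log2 fold change 1.30). Of the 6 tested other anterior hox genes 3 were lower (hoxb1b, hoxc1a and hoxc3a), with hoxb1b at 28.4 and 61.0 CPM (log2 fold change -1.22). Of 17 posterior hox genes 9 were lower and 0 higher, with a median log2 fold change of -0.61 against 0.01 over all genes. With the cells holding none of the 3 genes left out, 0 of 15 posterior hox genes were called by edgeR, with a list median of 0.02 on the log2 scale, while hoxb1b and hoxc1a remained lower and hoxa4a higher. irx7 was at 18.2 CPM with mafba and 50.4 CPM without it (log2 fold change -1.10).

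More genes were called for mafba in the cells without other markers, with values in those cells as follows. Of these, cxcl12a and cdx4 were also called in the same direction in all hindbrain cells. irx1b, an Iroquois factor, was at a median of 227 CPM with mafba and 61.8 CPM without it (log2 fold change 1.45), and efnb3b, an ephrin ligand, at 133 and 56.3 CPM (log2 fold change 1.195). The chemokine gene cxcl12a was at 299.9 and 68.8 CPM (log2 fold change 1.99). Lower with mafba were cdx4 at 47.6 and 676 CPM (log2 fold change -2.19), sall4, a zinc finger factor, at 121 and 259 CPM (log2 fold change -1.47), and ptk7a, a planar cell polarity receptor, at 66.1 and 106 CPM (log2 fold change -1.07). When cells with none of the 3 genes were left out, in all hindbrain cells, the log2 value of cdx4 was -0.00624 and not called. Without wildtype replicate 2 the calls of this fit were 21.

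With hoxb1a there were 264 cells and without it 1135, with median depths of 10289 and 11460 UMIs, and other markers in 82.2% and 77.1% of them. Of 6250 genes tested, 206 (3.3%) were called, 118 higher and 88 lower with hoxb1a, and 4 of them belonged to the selection. In cells without other markers, where 9 embryos had such cells, 13 of 963 (1.35%) were called, 7 higher and 6 lower, and 1 of them belonged to the selection. The calls shared with the same direction were bcam, cdx4, cyp26c1 and hes6, or 1.94% and 30.8% of the 2 sets, and 7 genes were called after thinning. Once the 553 cells with none of the 3 genes were left out, 191 of 5291 genes (3.61%) were called, 113 of them also called in the same direction among the 206.

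hoxb1b was higher with hoxb1a in 10 of 10 embryos, at 62.9, 117 and 159 CPM (lowest, median and highest embryo) with hoxb1a and 25.2, 38.4 and 86.1 CPM without it (log2 fold change 1.25, SE 0.10, edgeR adjusted p = 4.64e-07). irx7 was at 51.6, 90.9 and 148 CPM with hoxb1a and 18.1, 29.5 and 81.0 CPM without it (log2 fold change 1.34, SE 0.14, edgeR adjusted p = 4.53e-06). For both genes the ranges of the 2 sides overlapped across embryos while the order within each embryo was the same. Neither hoxb1b nor irx7 was among the calls shared with the cells without other markers. Hox cofactors, TALE homeodomain proteins that bind DNA with Hox proteins, were higher for 3 of 8 tested genes and lower for 0 (meis1a, meis2a and meis3). meis3 was at 62.6 and 21.4 CPM (log2 fold change 1.39). nr2f1a, an orphan nuclear receptor, was at 57.6 and 26.4 CPM (log2 fold change 0.92).

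Genes of other tissues were among those higher with hoxb1a. gata6, a factor of endoderm and heart, was at 35.9 CPM with hoxb1a and 4.49 CPM without it (log2 fold change 2.76), foxa2, of endoderm and floor plate, at 31.9 and 10.7 CPM (log2 fold change 1.42), and the chemokine gene cxcl12b at 157 and 46.1 CPM (log2 fold change 1.72). None of these was among the genes called in cells without other markers. That set leaves out cells with at least 2 markers of endoderm or of lateral plate and heart. Only 963 genes were tested in it, so the absence of these calls shows little. In cells without other markers bcam, a cell adhesion molecule, was at 473 and 85.3 CPM (log2 fold change 2.35, SE 0.31, edgeR adjusted p = 1.55e-05), higher with hoxb1a in 8 of 9 embryos. her6, a Notch-responsive hairy gene, was at 244 and 123 CPM (log2 fold change 0.93) and was higher in 5 of 9 embryos.

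Genes lower with hoxb1a included those highest with mafba or with egr2b. cyp26c1 was at 46.2 and 118 CPM with and without hoxb1a (log2 fold change -1.23), and in cells without other markers at 30.5 and 368 CPM (log2 fold change -2.77, SE 0.38, edgeR adjusted p = 1.55e-05). epha4a was at 63.1 and 87.1 CPM (log2 fold change -0.87). Neither epha4a nor, in all hindbrain cells, cyp26c1 was called in the 4 wildtype embryos alone. Of 17 posterior hox genes 12 were lower and 0 higher, with a median log2 fold change of -1.03 against -0.01 over all genes. Without the cells holding none of the 3 genes 2 of 10 were lower and 1 higher. The list median was then -0.52 on the log2 scale, against -0.01 over all genes. In that setting cyp26c1 (-2.03 on the log2 scale) and epha4a (-1.27) remained called. Of 23 tested Notch genes 7 were lower and 2 higher. Among them dla, a Delta ligand, was at 79.5 and 119 CPM (log2 fold change -0.62), and hes6 at 112 and 179.5 CPM (log2 fold change -0.88). After cells with other markers were set aside, cdx4 was at 30.5 and 562 CPM (log2 fold change -2.68). With the cells holding none of the 3 genes left out, in all hindbrain cells, neither cdx4 (-0.40 on the log2 scale) nor hes6 (-0.36) was called. Without wildtype replicate 1, and likewise without replicate 3, the calls of that fit were 8.

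**Figure D4:**
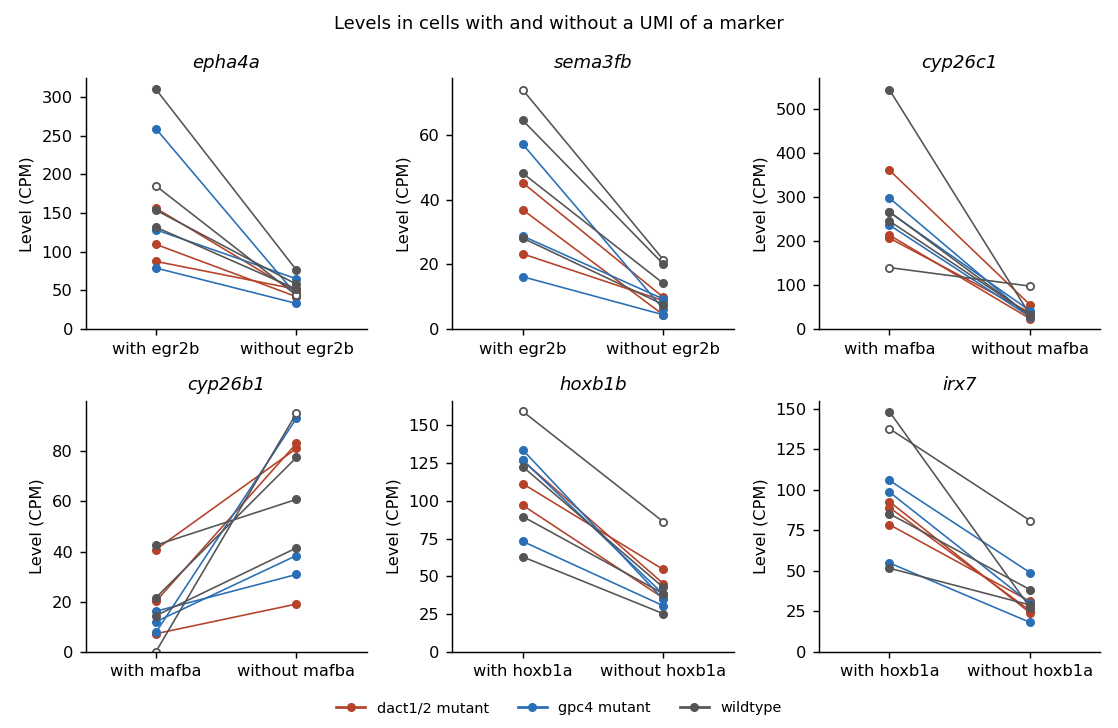
Level (CPM) of genes that the selection did not use, in hindbrain cells with and without egr2b, mafba or hoxb1a; each line joins the 2 sides of 1 embryo, with the side that holds the gene on the left, coloured by genotype, and open circles are wildtype replicate 1. epha4a with egr2b, cyp26c1 with mafba, and hoxb1b and irx7 with hoxb1a were higher in 10 of 10 embryos.

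The selected hindbrain cells of the genotypes were then compared on summed UMIs with the same test and thresholds. A sum over cells cannot tell fewer cells with a gene from less of its RNA in each cell. Cells without other markers gave a mean of 14.2% of these UMIs in wildtype replicates 2 to 4. In dact1/2 mutants the mean was 7.21% and in gpc4 mutants 9.78%, with ranges that overlapped. The bearing of this on the calls was not tested. Genes named for their low p were picked among called genes whose groups did not overlap. For them a lack of overlap follows from that choice and adds no evidence. In dact1/2 mutants against wildtype replicates 2 to 4, 42 of 9436 genes (0.445%) were called, 23 higher and 19 lower. In cells without other markers 5 of 3418 (0.146%) were called, 1 higher and 4 lower, and 1 gene was in both sets in the same direction. With all 4 wildtype embryos 1 gene of 9459 was called (0.0106%) in all hindbrain cells, and 0 of 3873 in cells without other markers, where 182 had an unadjusted p under 0.05. DESeq2 called 41 in the first comparison, 34 higher and 7 lower, a different balance of directions from that of edgeR. Leaving out dact1/2 mutant replicate 1 or 2 gave 21 or 341 calls, and leaving out wildtype replicate 2 or 4 gave 23 or 22.

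No gene of the lists of other anterior hox genes, posterior hox genes, hox cofactors, rhombomere regulators, eph receptors and ephrins, or retinoic acid, FGF and Notch genes was called between dact1/2 mutants and wildtype embryos. These lists held 139 tested genes, of which 0 were called by edgeR or by DESeq2. With 0.445% of all genes called, a count of 0 is near the background. By edgeR 15 of the 139 (10.8%) had an unadjusted p under 0.05, against 14.2% of all genes. The list medians ran from -0.15 for hox cofactors to 0.03 for Notch genes, against -0.02 over all genes, on the log2 scale. The 6 markers of the selection had log2 fold changes between -0.33 and 0.39 in all hindbrain cells. egr2b was at 90.5 ± 23.0 CPM (SD, n = 3) in dact1/2 mutants and 75.2 ± 3.42 CPM (SD, n = 3) in wildtype embryos. mafba was at 94.3 ± 34.2 CPM in dact1/2 mutants and 83.9 ± 29.5 CPM in wildtype embryos (SD, n = 3 each).

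The gene BX284696.1, of unknown role, was the only one called also with all 4 wildtype embryos. It was at 8.40, 9.92 and 12.4 CPM in dact1/2 mutants, against 0.444, 0.615, 0 and 0 CPM in wildtype replicates 1 to 4 (edgeR adjusted p = 0.0121). With 93 UMIs in the 3 mutants and 1 UMI in wildtype replicates 2 to 4, the ratio was 61.5 (exact 95% interval 10.8 to 2455, counting error only). It was not high in dact1/2 mutants alone: the gpc4 mutants had 3.63, 8.79 and 14.1 CPM. atp6v0e1, a subunit of the vacuolar proton pump, was at 91.9, 104 and 101 CPM in dact1/2 mutants, against 58.6, 60.3, 44.3 and 54.8 CPM in wildtype replicates 1 to 4. These ranges did not overlap, and atp6v0e1 rose by a log2 fold change of 1.04 (SE 0.14, edgeR adjusted p = 0.0121), a call not held with all 4 wildtype embryos or in cells without other markers.

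In other called genes wildtype replicate 1 was unlike the rest. hspb1, a small heat shock protein, was at 1974, 1333 and 1747 CPM in dact1/2 mutants, against 4385 CPM in wildtype replicate 1 and 1017, 841 and 913 CPM in replicates 2 to 4 (log2 fold change 1.02, SE 0.17, edgeR adjusted p = 0.0384, without replicate 1). With all 4 wildtype embryos its log2 fold change was 0.10. mdkb was at 196, 202 and 255 CPM in dact1/2 mutants, against 403, 157, 131 and 102 CPM in wildtype replicates 1 to 4 (log2 fold change 0.88, edgeR adjusted p = 0.068), and 0.30 with all 4. zgc:65851 was at 19.7, 29.5 and 24.7 CPM in dact1/2 mutants and at 77.2, 8.61, 6.71 and 7.44 CPM in wildtype replicates 1 to 4. si:ch73-144d13.4 was listed at 0 UMIs in wildtype replicates 2 to 4 and at 35.1 CPM in replicate 1, and at 5.30 to 9.28 CPM in dact1/2 mutants. Against a floor of 3 UMIs over the 3 wildtype embryos it was at least 18.3-fold higher in dact1/2 mutants.

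2 gene models with the symbol rrm2, a subunit of ribonucleotide reductase, were called in opposite directions. rrm2 (ENSDARG00000078069) was at 347, 296 and 341 CPM in dact1/2 mutants, against 396, 192, 146 and 186 CPM in wildtype replicates 1 to 4 (log2 fold change 1.06). rrm2 (ENSDARG00000020711) was at 38.1, 6.40 and 9.43 CPM in dact1/2 mutants, against 0, 134, 137 and 131 CPM in wildtype replicates 1 to 4 (log2 fold change -2.55). Whether reads were divided differently between the 2 models was not tested, so both values are uncertain. Of the 32 tested cell cycle genes no other was called.

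gpx1b, a glutathione peroxidase, rose in dact1/2 mutants, at 10.2, 16.6 and 17.7 CPM, against 3.69, 3.13 and 5.48 CPM in wildtype replicates 2 to 4 and 6.21 CPM in replicate 1 (log2 fold change 1.91, SE 0.32, edgeR adjusted p = 0.0393). It was not called with all 4 wildtype embryos. capn8, a calcium-dependent protease, was at 36.9, 31.1 and 26.5 CPM in dact1/2 mutants, against 8.88, 8.61, 20.1 and 14.5 CPM in wildtype replicates 1 to 4 (log2 fold change 1.27, edgeR adjusted p = 0.118). capn8 missed the threshold and was not called. Its groups did not overlap, but the share of all tested genes without overlap was not counted. The epidermis and periderm list in the same cells summed to 2178 to 2550.4 CPM in dact1/2 mutants and 895 to 2621 CPM in wildtype embryos, and its part in the capn8 level was not tested. smad1, a BMP signal transducer, was at 19.0, 35.9 and 30.6 CPM in dact1/2 mutants, against 16.9, 38.1, 42.9 and 43.9 CPM in wildtype replicates 1 to 4 (log2 fold change -0.44, edgeR adjusted p = 0.349).

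Among the genes lower in dact1/2 mutants were the purinergic receptor p2rx4b (log2 fold change -2.50), the metabolite repair enzyme naxe (-2.51), the actin-binding ablim1b (-3.34) and the adhesion molecule cadm3 (-1.44). None of these was called with all 4 wildtype embryos. si:dkey-9c18.3 was listed at 0 UMIs in all 3 dact1/2 mutants and at 8.61, 7.60 and 5.48 CPM in wildtype replicates 2 to 4, with 0.444 CPM in replicate 1. It was at least 22.7-fold lower in dact1/2 mutants against a floor of 3 UMIs over the group, and the gpc4 mutants had 6.36 to 10.0 CPM.

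In hindbrain cells without other markers, the genes called in dact1/2 mutants were p4ha1b, rpl38, rps29, cep131 and rrm2 (ENSDARG00000020711). p4ha1b, a collagen prolyl hydroxylase, was at 56.5, 77.5 and 70.8 CPM in dact1/2 mutants, against 22.4, 12.6, 16.8 and 16.6 CPM in wildtype replicates 1 to 4 (log2 fold change 2.14, SE 0.40, edgeR adjusted p = 0.0315). The groups did not overlap. The ribosomal protein gene rpl38 was at 1785, 1802 and 1801 CPM in dact1/2 mutants, against 2241, 3438, 2832 and 2895 CPM in wildtype replicates 1 to 4 (log2 fold change -0.76, SE 0.10, edgeR adjusted p = 0.00206). The centrosomal gene cep131 was at 166, 125 and 121 CPM in dact1/2 mutants, against 131, 277, 300.3 and 277 CPM (log2 fold change -1.03, SE 0.20, edgeR adjusted p = 0.0315), where replicate 1 was at the level of the mutants. Leaving out wildtype replicate 4 left 1 call, and leaving out wildtype replicate 3 or dact1/2 mutant replicate 3 gave 9 or 10.

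In gpc4 mutants against wildtype replicates 2 to 4, 23 of 8859 genes (0.26%) were called, 11 higher and 12 lower. Among the cells without other markers 5 of 2714 (0.184%) were called, 4 higher and 1 lower, and 3 of them (aga, hspb1 and CR847906.1) were in both sets in the same direction. With all 4 wildtype embryos 6 of 9510 (0.0631%) were called, namely aga, hbae3, icn, rbp7b, gpc4 and CR847906.1, and 1 of 3174 (0.0315%), aga, in cells without other markers. This comparison shares its wildtype embryos with that of the dact1/2 mutants. DESeq2 called 56 genes. Leaving out wildtype replicate 2 or 3 gave 11 or 48 calls in all hindbrain cells.

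aga, which encodes the lysosomal enzyme aspartylglucosaminidase, had the lowest adjusted p of this comparison. It was at 155, 129 and 128 CPM in gpc4 mutants, against 16.9, 7.99, 13.4 and 9.40 CPM in wildtype replicates 1 to 4, and the dact1/2 mutants were at 11.2 to 13.6 CPM. The lowest gpc4 mutant was far above every other embryo, with a log2 fold change of 3.87 (SE 0.24, edgeR adjusted p = 8.57e-05). In cells without other markers aga was at 219.8, 194 and 178 CPM in gpc4 mutants, against 12.8, 9.45, 14.0 and 16.6 CPM in wildtype replicates 1 to 4 (log2 fold change 3.85, SE 0.34, edgeR adjusted p = 2.86e-06). It was called under every alternative that was run.

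The targeted gene was lowered in hindbrain cells. gpc4 was at 12.7, 15.06 and 15.7 CPM in gpc4 mutants, against 59.5, 41.8, 47.8 and 64.2 CPM in wildtype replicates 1 to 4, without overlap (log2 fold change -1.72, SE 0.21, edgeR adjusted p = 0.0135). It was the only called gene among 29 tested genes of noncanonical Wnt signaling and planar cell polarity, whose median log2 fold change was -0.13 against -0.000482 over all genes. dact2 was at 38.5, 41.4 and 60.4 CPM in gpc4 mutants, against 59.0, 28.3, 22.8 and 39.2 CPM in wildtype replicates 1 to 4 (log2 fold change 0.73, edgeR adjusted p = 0.31).

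The genes hbae3, icn and rbp7b were also called with all 4 wildtype embryos. hbae3, an embryonic hemoglobin gene, was at 36.6, 40.2 and 38.9 CPM in gpc4 mutants, against 12.4, 6.76, 9.39 and 10.2 CPM in wildtype replicates 1 to 4 (log2 fold change 2.23, SE 0.21, edgeR adjusted p = 0.00206). The blood and vessel list in the same cells summed to 72.2, 211 and 333 CPM (lowest, median and highest) in gpc4 mutants and 66.4, 212 and 292 CPM in wildtype embryos, and its part in the hbae3 level was not tested. icn, an S100-type calcium-binding gene, was at 73.9, 87.2 and 44.7 CPM in gpc4 mutants, against 16.9, 24.0, 21.9 and 21.1 CPM (log2 fold change 1.77). rbp7b, a retinoid-binding protein, was at 23.3, 18.2 and 15.7 CPM in gpc4 mutants, against 2.22, 4.30, 5.36 and 1.96 CPM (log2 fold change 2.51).

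Other calls depended on which wildtype embryos were used. qdpra, which recycles tetrahydrobiopterin, was at 32.1, 38.9 and 58.8 CPM in gpc4 mutants, against 23.5 CPM in wildtype replicate 1 and 4.92, 2.68 and 3.92 CPM in replicates 2 to 4 (log2 fold change 3.59). hspb1 was at 1715, 1701 and 2001 CPM in gpc4 mutants (log2 fold change 1.09), below the 4385 CPM of wildtype replicate 1. ccng1, a p53-responsive cyclin, was at 288, 336 and 302 CPM in gpc4 mutants, against 198, 189, 207 and 191 CPM in wildtype replicates 1 to 4 (log2 fold change 0.78, SE 0.12, edgeR adjusted p = 0.0377). The groups did not overlap for ccng1, but it was not called with all 4 wildtype embryos or in cells without other markers. nop14, a factor of ribosome assembly, was at 19.99, 18.8 and 20.7 CPM in gpc4 mutants, against 22.6, 75.0, 59.9 and 97.5 CPM in wildtype replicates 1 to 4 (log2 fold change -1.82).

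mdkb and tuba1a were called higher in gpc4 mutants only among cells without other markers. mdkb was at 604, 391 and 297 CPM in gpc4 mutants, against 528, 233, 168 and 139 CPM in wildtype replicates 1 to 4 (log2 fold change 1.13, edgeR adjusted p = 0.0766, and 0.17 in all hindbrain cells). The alpha-tubulin gene tuba1a was at 247, 615 and 244 CPM in gpc4 mutants, against 365, 154, 84.2 and 149.7 CPM (log2 fold change 1.67, edgeR adjusted p = 0.0518). In both genes wildtype replicate 1 lay within the range of the mutants. Leaving out gpc4 mutant replicate 2 or wildtype replicate 3 left 1 call in this fit, and leaving out gpc4 mutant replicate 1 or wildtype replicate 2 gave 12 or 8.

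As in the dact1/2 mutants, no gene of the hox, hox cofactor, rhombomere regulator, eph and ephrin, retinoic acid, FGF or Notch lists was called between gpc4 mutants and wildtype embryos. Of their 139 tested genes 0 were called by edgeR or by DESeq2, again near the background of 0.26%. By edgeR 13 of the 139 (9.35%) had an unadjusted p under 0.05, against 11.1% of all genes. The 20 tested rhombomere regulators had a median log2 fold change of -0.23 and the 19 posterior hox genes one of 0.17. The 6 markers of the selection had log2 fold changes between -0.10 and 0.19. Such list medians were not tested, and at 3 embryos a group small changes of single genes may not have been detectable.

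**Figure D5:**
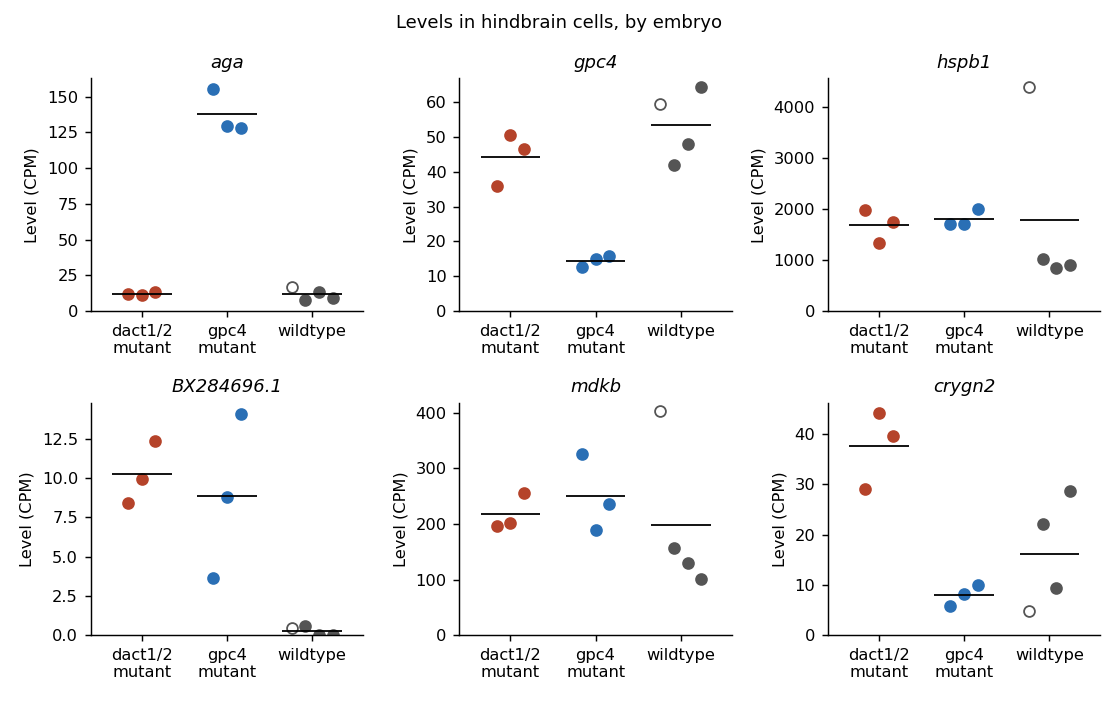
Level (CPM) in all hindbrain cells of genes named in the comparisons of genotypes; each point is 1 embryo, horizontal lines are group means, and the open circle is wildtype replicate 1. aga was at 128 to 155 CPM in gpc4 mutants and at most 16.9 CPM in every other embryo, and hspb1 was highest in wildtype replicate 1 (4385 CPM).

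The mutants were also compared with each other, which involves no wildtype embryo. Of 9243 genes, 31 (0.335%) were called, 19 higher and 12 lower in dact1/2 than in gpc4 mutants. With embryos blocked by replicate number 304 (3.29%) were called. By the rule given at the end those numbers did not pair the embryos, so the genes below are from the fit without the block. With cells holding other markers set aside, 8 of 2549 (0.314%) were called, 3 higher and 5 lower, and aga, fthl31 and hist1h2a3 were in both sets. Leaving out dact1/2 mutant replicate 2 gave 18 calls and leaving out gpc4 mutant replicate 1 gave 52. In cells without other markers the calls were 28 without gpc4 mutant replicate 1, 3 without gpc4 mutant replicate 2, 5 without gpc4 mutant replicate 3, and 3 without dact1/2 mutant replicate 2.

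crygn2, the crystallin gene that was higher in cells with egr2b and with mafba, had the lowest p among the genes higher in dact1/2 mutants. It was at 29.1, 44.2 and 39.5 CPM in dact1/2 mutants, against 5.75, 8.16 and 9.94 CPM in gpc4 mutants (log2 fold change 2.31, SE 0.25, edgeR adjusted p = 0.00267). The wildtype embryos lay between and across them, at 4.88, 22.1, 9.39 and 28.6 CPM. crygn2 was not called between either mutant and the wildtype embryos. zp3, an egg coat protein gene, was at 15.0 to 17.7 CPM in dact1/2 mutants and 1.26 to 2.73 CPM in gpc4 mutants (log2 fold change 2.79). BX511021.1 was at 15.4, 8.96 and 17.1 CPM in dact1/2 mutants and listed at 0 UMIs in gpc4 mutants, a difference of at least 27.7-fold against a floor of 3 UMIs over the group, but it was also at 0 in wildtype replicates 1 and 4.

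The genes lower in dact1/2 than in gpc4 mutants included aga (log2 fold change -3.51, SE 0.22, edgeR adjusted p = 1.6e-05), qdpra (-3.14), hbae3 (-1.68) and icn (-1.75). Once cells with other markers were left out, ccng1 was at 109, 146 and 101 CPM in dact1/2 mutants, against 288, 275 and 244 CPM in gpc4 mutants (log2 fold change -1.11, SE 0.23, edgeR adjusted p = 0.0535). supt4h1, a transcription elongation factor, was at 222, 169.8 and 233 CPM in dact1/2 mutants, against 41.2, 98.9 and 59.4 CPM in gpc4 mutants (log2 fold change 1.43, SE 0.31, edgeR adjusted p = 0.0535). In neither gene did the groups overlap. Each of the 3 dact1/2 mutants and of gpc4 mutant replicates 2 and 3, when left out, ended the call of ccng1.

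Whether the effect of a genotype differed between hindbrain and anterior neural cells was tested as an interaction within embryos. For dact1/2 mutants 0 of 10140 genes were called by edgeR, with 506 at an unadjusted p under 0.05, and leaving out wildtype replicate 3 or 4 gave 8 or 7 calls. For gpc4 mutants 8 of 9432 (0.0848%) were called, 6 with a more positive and 2 with a more negative effect in hindbrain cells. Once cells with other markers were left out, the counts were 0 of 4723 for dact1/2 mutants and 0 of 4221 for gpc4 mutants, with 239 and 206 at an unadjusted p under 0.05. The gpc4 count was 0 without gpc4 mutant replicate 1 or wildtype replicate 4, 17 without gpc4 mutant replicate 2 or wildtype replicate 3, and 32 without gpc4 mutant replicate 3.

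The 6 genes with the more positive effect included he1.1, which encodes the hatching enzyme of the hatching gland. In hindbrain cells he1.1 was at 99.9, 24.5 and 6.62 CPM in gpc4 mutants, against 4.92, 4.02 and 7.05 CPM in wildtype replicates 2 to 4. In anterior neural cells it was at 221, 184 and 19.5 CPM in gpc4 mutants, against 497, 78.2 and 230.3 CPM in wildtype replicates 2 to 4 (interaction log2 value 3.77, SE 0.54, edgeR adjusted p = 0.029). The spread among gpc4 mutants was wide in both regions, and the hatching gland is no part of the neural tube.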

How the data were processed

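Single-cell libraries of 10 whole embryos were used, with groups taken from the sample labels. The authors aligned and counted reads, and the submitters' processing notes name Cell Ranger 6.1.0. The deposited matrices hold whole-number UMI counts per gene and barcode, 21980 barcodes in all, and the reference build is GRCz11. The cell filter required 1500 UMIs, 750 detected genes and a mitochondrial share below 5%, which 16837 barcodes met. With a complexity above 0.8, which the study's filter also asks, 16449 were left, and both are fewer than the study states, for a reason not known here. No doublet caller was run here.

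The members and gene lists were chosen with earlier results of these data known. A cell was set aside as holding other markers where it had UMIs of at least 2 genes of any of 5 non-neural lists. Counts were summed per embryo over the selected cells. CPM are UMIs per 1000000 summed UMIs. Differences were tested with edgeR 4.0.16 (filterByExpr, TMM, quasi-likelihood test, Benjamini-Hochberg adjustment over all genes tested) in R 4.3.3 with limma 3.58.1. Genes of the selection were part of that adjustment, and no p-value of theirs is given. The SE of a log2 fold change was derived from the edgeR test, as its absolute value over the square root of the F value. It is no separate measure of spread. DESeq2 1.42.0 was an alternative. Shares were compared with exact permutation tests in Python 3.11.15 (numpy 2.4.6, scipy 1.17.1, pandas 2.3.3), and figures drawn with matplotlib 3.10.9. Wildtype replicates 2 to 4 entered the expression fits between genotypes, those drawn in the study's heat map by library names, although its methods name all 4, and all 4 were an alternative. Other alternatives were no filter on low counts, a replicate block, at least 3 markers, complexity above 0.8, cells under 10000 UMIs, cells thinned to 3000 UMIs, each embryo left out and, for the splits, cells holding none of egr2b, mafba and hoxb1a left out. Named genes were, per comparison of genotypes, the called genes of lowest p (up to 10 a direction) with at least 20 UMIs and groups that did not overlap; per split by a marker, the 10 higher and 5 lower with the smallest p; per difference between regions, the 5 of each direction; and in addition called genes of the lists, the genes of the selection, and dact1, dact2, gpc4, capn8, smad1, aga, mdkb and gpx1b. The fits were checked on simulated data. Labels do not say whether embryos came from separate clutches, so p-values measure only the spread between these embryos. Summed hindbrain UMIs per embryo ran between 1207621 and 4883802, and those without other markers between 72802 and 356295, so low genes are less precise in those cells.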

Additional observations from a re-analysis of the deposited data

Results flagged for a closer look

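In 7 of 46 sets of wildtype values tested, 1 of the 4 embryos lay far from the other 3, where chance flags about 1 in 20 groups. That rate gives no expectation here, since the sets share the same embryos and genes among them were chosen by fits without wildtype replicate 1. Wildtype replicate 4 had a share of hindbrain cells of 10.6%, against 8.12% to 8.32% in the other wildtype embryos. Wildtype replicate 1 was the distant embryo in the other 6 sets. In it zgc:65851 was at 77.2 CPM, si:ch73-144d13.4 at 35.1 CPM, hspb1 at 4385 CPM and qdpra at 23.5 CPM, above the other 3 wildtype embryos, and si:zfos-169g10.3 at 7.99 CPM and rrm2 (ENSDARG00000020711) at 0 CPM, below them.

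The gpc4 effect differed between hindbrain and anterior neural cells for 8 genes by edgeR's test of the difference (wildtype replicates 2 to 4). For the 5 genes of lowest p with a more positive effect and both with a more negative one, the log2 values of the difference were 3.84 for si:dkey-269i1.4, 3.77 for he1.1, 4.42 for si:dkey-26g8.5, 5.16 for si:dkey-239j18.3 and 4.03 for ctslb, and -3.63 for cldne and -2.68 for pycard. In hindbrain cells si:dkey-269i1.4 was at 54.5, 18.8 and 6.62 CPM in gpc4 mutants, against 4.30, 3.58 and 3.92 CPM in wildtype replicates 2 to 4. In anterior neural cells cldne was at 79.0, 12.9 and 6.75 CPM in gpc4 mutants, against 0.612, 2.14 and 3.30 CPM in the same wildtype embryos. No gene was called without gpc4 mutant replicate 1, without wildtype replicate 4 or in cells without other markers. Causes were not tested.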

How the results depend on the processing

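Of 340 gene results named, all but 13 kept their direction under every alternative. The log2 value of ascl1a with and without mafba was -0.0385 in the 4 wildtype embryos alone, against 0.83. Without cells holding none of egr2b, mafba and hoxb1a, an alternative chosen after seeing the data, log2 values with and without egr2b turned for hoxd10a (0.194), hes6 (0.0465), hoxb7a (0.0112), sp5l (0.351), hoxb10a (0.263), hoxc3a (0.193) and cyp26c1 (-0.245), and with and without mafba for hoxc3a (0.000845), hoxb9a (0.0233), hoxd10a (0.194), hoxa9b (0.0254) and hoxb10a (0.163). That setting gave 129 calls for egr2b and 68 for mafba. In 210 gene results a call was lost under at least 1 alternative. The cause of these changes was not tested, except that fewer cells or embryos leave less to test. With all 4 wildtype embryos the genes called were 1 for dact1/2 mutants and 6 for gpc4 mutants (0 and 1 in cells without other markers), and 19 for the difference of the gpc4 effect between regions. With no filter on low counts they were 513 for dact1/2 mutants, 476 for gpc4 mutants, 327 between the mutants, 73 and 103 for the differences between regions (dact1/2 and gpc4), and 480, 464 and 490 with and without egr2b, mafba and hoxb1a. With at least 3 markers they were 6, 13 and 18 (dact1/2 mutants, gpc4 mutants, between them), under 10000 UMIs 11, 14 and 17, and without cells with other markers 5, 5 and 8. DESeq2 called 56 for gpc4 mutants and 52 between the mutants, and complexity above 0.8 gave 50 for gpc4 mutants. For egr2b, mafba and hoxb1a the counts were 116, 92 and 96 in the 4 wildtype embryos alone, 21, 12 and 7 after thinning, and 23, 33 and 13 without cells with other markers. That last setting gave 0 for the gpc4 difference between regions.

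The labels share replicate numbers across groups, but the numbers did not pair the embryos by the rule of a correlation over 0.1 in every pair (correlations of deviations 0.607, 0.497 and 0.0598 between dact1/2 and gpc4 mutants, 0.161, 0.182 and 0.0170 between gpc4 mutants and wildtype, and 0.0534, 0.0915 and -0.0213 between dact1/2 mutants and wildtype). With the replicate block the genes called were 0 for dact1/2 mutants and 3 for gpc4 mutants (all 4 wildtype embryos), and 304 between the mutants, against 31 without it. That block joins embryos by replicate number only. In the order of the samples, the wildtype embryo listed beside each pair of mutants has the next higher number. Such a pairing was not fitted. Between the mutants 5 of 6 embryos correlated best with the embryo of their own number, a hint from the data only.

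Leaving out 1 embryo at a time gave 21 to 341 calls for dact1/2 mutants (1 to 10 in cells without other markers), 11 to 48 for gpc4 mutants (1 to 12), 18 to 52 between the mutants (3 to 28), 0 to 8 and 0 to 32 for the differences between regions, 162 to 270 for egr2b (17 to 31), 146 to 191 for mafba (21 to 38) and 181 to 225 for hoxb1a (8 to 17). The difference in share between dact1/2 mutants and wildtype, -0.0324 percentage points, was 0.689 after thinning, 0.881 as a share of neural cells and 0.0149 with at least 3 markers, and -0.877 to 0.547 with 1 embryo left out. That of gpc4 mutants, -1.13, was 0.450 as a share of neural cells, -0.0832 after thinning and -0.418 with at least 3 markers, and -2.52 to -0.240 with 1 embryo left out. The cells without other markers were few, between 10 and 61 in an embryo.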
